A study of Mus musculus with 2 samples.

Results

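The cells described here were neutrophils of mouse pancreatic tumors that carried a high load of interferon-induced transcripts. They were chosen by 2 steps from single-cell RNA-seq counts. A barcode was first called a tumor neutrophil when it held at least 1000 UMIs (unique molecular identifiers, each standing for 1 captured transcript) and 200 genes, at most 20% mitochondrial UMIs, at least 3% of UMIs from S100a8, S100a9, Csf3r, Cxcr2, Il1r2 and G0s2, less than 1% from the immature granule genes Camp, Ngp and Ltf, less than 0.3% from Retnlg and Mmp8, and at most 2 UMIs of Cd3e, Cd79a and C1qa together. Among these cells, interferon-high meant that at least 0.3% of UMIs came from 6 interferon-induced genes, Rsad2, Isg15, Ifit3, Gbp2, Slfn5 and Isg20. The rule kept 402 interferon-high cells of 1960 tumor neutrophils and of 14022 cells in all, namely 155 of 1193 tumor neutrophils and 6904 cells in the PBS library and 247 of 767 tumor neutrophils and 7118 cells in the cmExoaCD11b library.

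The study asked how a vesicle treatment altered immune cells of pancreatic cancer. Both libraries came from male C57BL/6J mice, 5 to 6 weeks old when obtained, that carried orthotopic tumors of K210. K210 is 1 cell line taken from a spontaneous pancreatic tumor of a genetically engineered C57BL/6J mouse. That mouse had floxed Trp53 (Trp53 fl/fl) and the Pdx1-Cre transgene, which acts in the pancreatic lineage. The PBS library was made from mice given phosphate-buffered saline. The cmExoaCD11b library was made from mice given exosomes of mouse embryonic fibroblasts that carried IL-12 mRNA, the STING agonist cGAMP and an antibody to CD11b, a surface integrin of myeloid cells, at 5 µg cGAMP per mouse by intraperitoneal injection. Cells were taken 48 h after treatment, and each library pooled 3 mice. With 1 library for each treatment there was no replicate, so no difference between treatments could be tested, and the intervals given are 95% intervals that cover counting error only.

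Interferons are cytokines, and cells release type I interferon when sensors such as STING, RIG-I or MDA5 are engaged. Type I interferon signals through Ifnar1 and Ifnar2 to transcription factors that bind interferon-stimulated response elements, and interferon gamma signals to factors that bind gamma-activated sites. The genes these factors switch on encode antiviral proteins, nucleic acid sensors, chemokines and the machinery that loads peptides onto MHC class I, and neutrophils that show this program are a recurring state in infected, inflamed and tumor-bearing animals.

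The letters of the response element were more frequent in promoters of interferon genes than in promoters of all genes, but most of these promoters did not hold them. In RefSeq promoter windows on GRCm38.p6, from 250 bases before to 50 bases after each gene's start, the core GAAA-NN-GAAA (N is any base, the hyphens mark its parts) was searched on both strands. It occurred in 39 of the 94 interferon genes outside the rule that had a window, out of 115 such genes, or 41.5%, against 3.99% of 27025 promoters of all genes. The letters of the gamma-activated site, TTCNNNGAA, occurred in 18 of the 94, or 19.1%, against 9.55% of all promoters. The response element was present in 8 of 9 promoters of guanylate-binding proteins and immunity-related GTPases, in 8 of 9 of the Ifi200 family and in 3 of 4 of the Ifit family, but in 4 of 15 of MHC class I presentation, 1 of 7 of the chemokines and ligands and 0 of 3 of Isg15 conjugation. Promoter stretches are shown for 4 genes that were at least 2-fold higher in interferon-high cells of both libraries, read 5′ to 3′ along the gene's strand, with the response element in capitals (TTTC-NN-TTTC is the same element read on the other strand). The stretches lie at chr19:34640769-34640888 on the plus strand for Ifit1, chr3:142496699-142496818 on the plus strand for Gbp5, chr8:61927967-61928086 on the plus strand for Ddx60 and chr5:92349020-92349139 on the minus strand for Cxcl10.
Ifit1: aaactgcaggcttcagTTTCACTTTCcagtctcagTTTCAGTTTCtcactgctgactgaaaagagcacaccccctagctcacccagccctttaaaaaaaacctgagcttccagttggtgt
Gbp5: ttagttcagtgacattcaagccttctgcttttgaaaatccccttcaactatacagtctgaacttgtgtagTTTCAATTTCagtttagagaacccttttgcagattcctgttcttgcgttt
Ddx60: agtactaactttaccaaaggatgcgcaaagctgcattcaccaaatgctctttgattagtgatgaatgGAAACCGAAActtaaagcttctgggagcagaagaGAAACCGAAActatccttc
Cxcl10: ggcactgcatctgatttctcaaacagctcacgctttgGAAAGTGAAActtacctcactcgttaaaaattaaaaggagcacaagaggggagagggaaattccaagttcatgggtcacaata
Ifit1 and Ddx60 each showed 2 matches in the stretch that ends at the base before their start, and Gbp5 and Cxcl10 each showed 1 match. These 4 genes were shown because they held the element. Of the 10 genes ranked highest in both libraries, 8 had a window and 4 held it. A match is a description of these letters and was not tested for binding.

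The 6 genes that chose the cells were not alike among them. Isg15, a ubiquitin-like protein, was detected in 148 of 155 PBS and 240 of 247 cmExoaCD11b cells, and Rsad2, the antiviral enzyme viperin, in 131 and 206. Isg20, an exonuclease, was detected in 110 and 158 cells, Slfn5 in 76 and 145, and the GTPase Gbp2 in 70 and 112. Ifit3, an RNA-binding antiviral protein, differed between the libraries. It was detected in 21 PBS cells and 110 cmExoaCD11b cells, at 141 and 600 CPM (UMIs of the gene per 1000000 UMIs of the summed cells, the scale of every level below). All 6 genes were detected together in 7 PBS cells and 47 cmExoaCD11b cells. These genes defined the cells, so their levels describe the choice and support nothing else.

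The share of UMIs from the 6 genes formed a tail and not a separate peak. Its median in interferon-high cells was 0.722% in PBS (quartiles 0.439% and 1.21%, highest 6.52%) and 0.680% in cmExoaCD11b (quartiles 0.464% and 1.41%, highest 5.30%). The cells just inside the limit of 0.3% stood at 0.304% and 0.3001%, and those just outside at 0.298% and 0.2997%. From 0.25% to 0.3% there were 29 PBS and 31 cmExoaCD11b cells, and from 0.3% to 0.35% there were 19 and 28, so the limit cut a continuous range. Droplets without a cell (10 to 100 UMIs) held 0.0507% and 0.107% of their UMIs in these genes, below the limit in both libraries. When the UMIs of each cell were split at random into 2 equal sets and cells were chosen on the first set, 78.8% of the PBS and 80.6% of the cmExoaCD11b cells chosen reached the limit again in the second set, against 4.05% and 8.67% of the cells not chosen. Both sets hold the same 6 genes of the same cells. These percentages therefore describe only the counting error of the choice and give no separate support for the group.

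**Figure D1:**
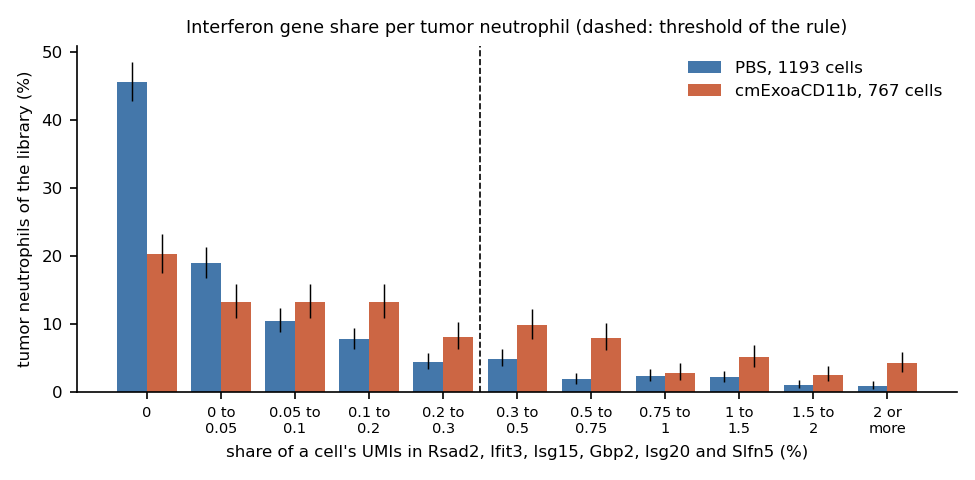
Share of tumor neutrophils (y axis, percent of the cells of a library) by the percent of their UMIs from the 6 interferon genes of the rule (x axis, ranges of unequal width), for PBS (1193 cells) and cmExoaCD11b (767 cells), with exact 95% binomial intervals as bars and a dashed line at the limit of 0.3%. Cells without any UMI of the 6 genes made up 45.6% of PBS and 20.2% of cmExoaCD11b tumor neutrophils, and cells are present on both sides of the limit without a gap.

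The label was checked against markers that the rule did not use. All 14 other neutrophil genes, among them Ly6g, Il1b, Acod1 and Mmp9, were detected in interferon-high cells of both libraries. Their summed levels were 24128 CPM in PBS and 31086 CPM in cmExoaCD11b, against 13197 and 14839 CPM in empty droplets. Ly6g, the surface protein most used to gate mouse neutrophils, was low, at 31.2 and 38.8 CPM. Genes of T, NK, B, plasma, macrophage, monocyte and dendritic cells were below their levels in empty droplets. The T and NK cell list summed to 33.2 and 108 CPM in interferon-high cells against 390 and 628 CPM in empty droplets, with 3 and 1 of its 10 genes at 0 and Ncr1 at 0 in both libraries. The B and plasma cell list summed to 443 and 922 CPM against 9553 and 18316 CPM in empty droplets, led by Igkc at 373 and 766 CPM. The macrophage and monocyte list summed to 607 and 395 CPM against 6169 and 1773 CPM, and the dendritic cell list to 178 and 339 CPM against 2711 and 1965 CPM, with Flt3, Xcr1 and Siglech at 0. The epithelial, stromal and red cell list was above them in cmExoaCD11b, at 1268 against 414 CPM, and below them in PBS, at 43 against 192 CPM. Free RNA, estimated from immunoglobulin genes, made up 3.64% of PBS and 2.70% of cmExoaCD11b tumor neutrophil UMIs.

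Depth was similar in the chosen cells of both libraries. The PBS cells held 512070 UMIs in all with a median of 3049 UMIs and 1004 genes per cell, and the cmExoaCD11b cells held 747044 UMIs with a median of 2545 UMIs and 919 genes. The median mitochondrial share was 0.242% and 0.243%. No barcode was shared between the chosen cells of the libraries, and 15 barcodes were shared among all cells kept. In each library 1 interferon-high cell had a barcode that was also a cell in the other library.

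Interferon-high cells took a larger part of tumor neutrophils in the cmExoaCD11b library. They made up 13% of tumor neutrophils in PBS (exact Clopper-Pearson interval 11.1% to 15%) and 32.2% in cmExoaCD11b (28.9% to 35.6%), a ratio of 2.48 (2.02 to 3.05). With every cell thinned to 1000 UMIs before the limit was applied, the shares were 16.0% and 35.2%, a ratio of 2.20 (1.82 to 2.66). Tumor neutrophils themselves were 17.3% of all PBS cells and 10.8% of all cmExoaCD11b cells, so that interferon-high cells were 2.25% and 3.47% of all cells, a ratio of 1.55 (1.26 to 1.90). Other cells showed a difference in the same direction. Among neutrophils with at least 0.3% of UMIs from Retnlg and Mmp8, chosen otherwise by the same rule and called Retnlg Mmp8 neutrophils here, the 6 genes reached the limit in 49 of 661 PBS cells (7.41%) and 379 of 1064 cmExoaCD11b cells (35.6%), and among cells outside the neutrophil gate in 9.75% and 20.5%. The spread between mice could not be measured, and treatment and library cannot be told apart.

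The comparison group needs a remark before the genes. The 1038 PBS and 520 cmExoaCD11b tumor neutrophils below the limit included cells that carried the primary granule genes Elane, Prtn3, Mpo and Ctsg, which promyelocytes express, at 0.3% of UMIs or more. These were 13 cells with 9.19% of the group's UMIs in PBS and 34 cells with 44.7% of its UMIs in cmExoaCD11b. Cells above 10000 UMIs, an overlapping set, were 29 cells with 17.8% of the UMIs and 55 cells with 59.4%. No interferon-high cell reached the primary granule limit, and 0 PBS and 4 cmExoaCD11b interferon-high cells exceeded 10000 UMIs. Levels are therefore given against all other tumor neutrophils and, for many genes and lists, against a trimmed group of 1008 PBS and 461 cmExoaCD11b cells without those cells, a group set after the data had been seen.

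Genes of the interferon program outside the 6 stood higher in interferon-high cells in both libraries. The 115 genes of 11 interferon lists summed to 30781 CPM in PBS interferon-high cells against 12186 CPM in other tumor neutrophils, and to 46772 CPM against 14638 CPM in cmExoaCD11b. With at least 50 UMIs over both groups, 64 of 80 genes were at least 2-fold higher and 1, Irf3, was at least 2-fold lower in PBS, where 2.78% of all 6220 genes were higher and 17.8% lower. Irf3 had 0 UMIs in PBS interferon-high cells, and against the trimmed group it had too few UMIs to be compared. In cmExoaCD11b 77 of 96 were at least 2-fold higher, where 8.95% of all 6750 genes were higher and 36.4% lower. The median log2 ratio of these genes was 2.17 in PBS and 1.90 in cmExoaCD11b, against -0.26 and -0.47 over all genes. Against the trimmed group it was 2.07 and 1.82, with 3.03% and 5.17% of all genes at least 2-fold higher and 5.84% and 4.52% lower. The cells were chosen on genes of the same program, so these values describe how far the program reached and were not tested. Some markers of other cells also stood higher in cmExoaCD11b against the trimmed group. At least 2-fold higher were 0 of 3 B and plasma cell genes (median log2 ratio 0.97) and 1 of 4 dendritic cell genes (0.99). So were 2 of 2 epithelial, stromal and red cell genes (1.56) and 0 of 4 macrophage and monocyte genes (0.26). In PBS these medians were 0.45, -0.0023, 0.52 and -0.068. Their part in the interferon values was not tested.

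**Figure D2:**
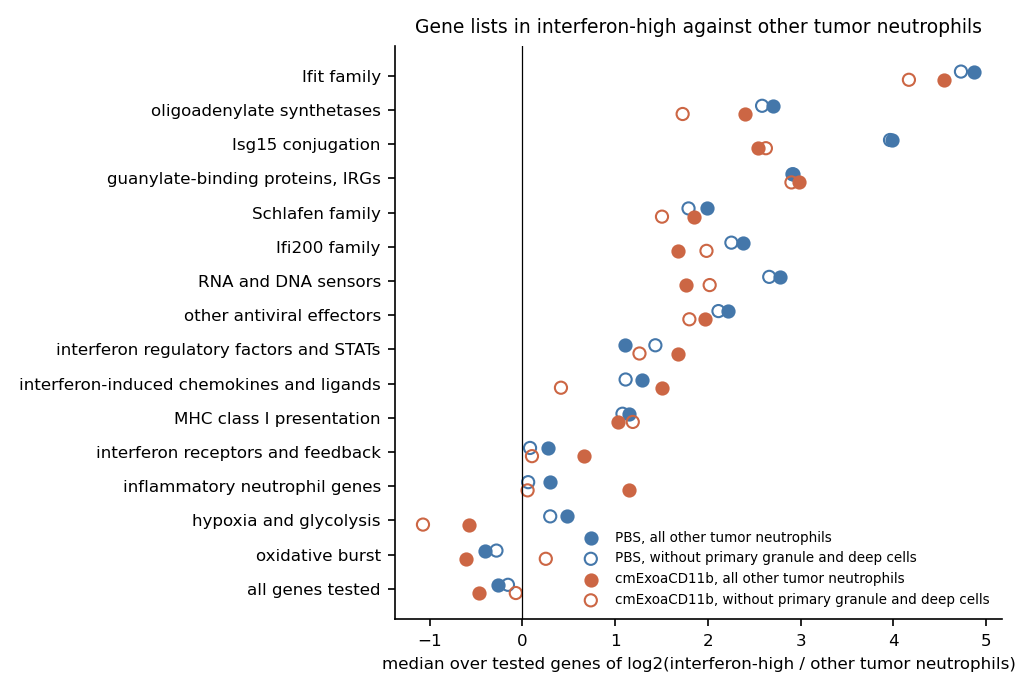
Median log2 ratio of interferon-high to other tumor neutrophils (x axis) over the genes of each list that could be compared (y axis), for PBS (blue) and cmExoaCD11b (orange), against all other tumor neutrophils (filled) and against those without primary granule and deep cells (open). The Ifit family lies farthest to the right in both libraries (4.88 and 4.54 filled, 4.73 and 4.17 open), and hypoxia and glycolysis lies on opposite sides of 0 (0.48 and -0.58 filled, 0.30 and -1.07 open).

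Among the interferon lists the Ifit family had the largest median ratio in both libraries. In this family, whose proteins bind foreign RNA, both PBS genes and all 4 cmExoaCD11b genes that could be compared were at least 2-fold higher. Ifit1 stood at 691 CPM in PBS interferon-high cells and 13.4 CPM in the others, a ratio of 51.6 (38.7 to 70.0), and at 1399 CPM and 59.4 CPM in cmExoaCD11b, a ratio of 23.5 (20.2 to 27.6). Thinned to 1000 UMIs per cell, Ifit1 was detected in 32.3% of PBS and 45.7% of cmExoaCD11b interferon-high cells, against 1.19% and 5.86% of the trimmed group. In B cells, gated on Cd79a, Cd79b and Ms4a1, it was detected in 0.889% and 0.341% at that depth (median 5347 and 7562 UMIs before thinning, against 3049 and 2545 in interferon-high cells). In T cells, gated on Cd3 genes, Ifit1 was detected in 22.1% and 34.8% at that depth (median 5596 and 4553 UMIs before thinning), so its detection was not particular to neutrophils. Ifit2 was 17.3-fold higher in PBS and 23.4-fold higher in cmExoaCD11b. All 5 PBS and all 6 cmExoaCD11b oligoadenylate synthetase genes, whose products activate the RNA-degrading RNase L or relate to those that do, were at least 2-fold higher, led by Oasl2 at 721 against 129 CPM and 675 against 128 CPM, the latter 2.78-fold against the trimmed group.

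The genes that attach Isg15 to proteins and remove it were higher in both libraries. Herc6, the mouse Isg15 ligase, stood at 230 against 14.4 CPM in PBS and 332 against 39.1 CPM in cmExoaCD11b. Usp18, which removes Isg15 and also dampens type I receptor signaling, was 17.8-fold (13.2 to 24.1) and 12.8-fold (9.73 to 17.0) higher. Every gene of this list that could be compared, 3 in PBS and 4 in cmExoaCD11b, was at least 2-fold higher.

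The same held for the GTPases that attack vacuoles of intracellular microbes. All 7 PBS and all 8 cmExoaCD11b guanylate-binding proteins and immunity-related GTPases were at least 2-fold higher. Gbp5, which also promotes inflammasome assembly, stood at 80.1 against 7.94 CPM in PBS, a ratio of 10.1 (6.2 to 16.6), and at 327 against 12.3 CPM in cmExoaCD11b, a ratio of 26.5 (18.9 to 38.0), which was 16.1 against the trimmed group. Irgm1 was 9.49-fold and 6.37-fold higher, and Ifi47 12.3-fold and 8.25-fold, the latter 16.7-fold against the trimmed group.

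Of the Schlafen genes, regulators of immune cell growth and quiescence, 4 of 4 in PBS and 5 of 6 in cmExoaCD11b were at least 2-fold higher. Slfn4, a myeloid member, stood at 2830 against 375 CPM in PBS and 2652 against 339 CPM in cmExoaCD11b, where it was 4.55-fold higher than in the trimmed group. At the thinned depth it was detected in 83.9% and 81.0% of interferon-high cells, 28.5% and 35.4% of the trimmed group and 3.56% and 4.44% of B cells. Slfn1 and Slfn2 were 2.10-fold and 2.09-fold higher in PBS but 1.79-fold and 1.83-fold against the trimmed group, where they were 1.79-fold and 1.66-fold in cmExoaCD11b. Against that group 2 of 4 Schlafen genes were at least 2-fold higher in each library. In the Ifi200 family of DNA-binding proteins, 2 of 2 PBS and 6 of 7 cmExoaCD11b genes were at least 2-fold higher, with Ifi204 at 217 against 28.3 CPM and 380 against 67.4 CPM.

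Sensors of viral nucleic acid were part of the program. Ifih1, which encodes the RNA sensor MDA5, was 7.70-fold higher in PBS and 6.52-fold in cmExoaCD11b, and Ddx58, which encodes RIG-I, 6.85-fold and 6.5-fold. Zbp1, a sensor of Z-form nucleic acid, was 5.97-fold and 3.96-fold higher. Of this list 4 of 5 genes in PBS and 5 of 6 in cmExoaCD11b were at least 2-fold higher. Few genes of the cGAMP and STING pathway could be compared. The STING gene, listed as Tmem173, was at 0 CPM in PBS and 5.35 CPM in cmExoaCD11b interferon-high cells, and in cmExoaCD11b it and Abcc1, a transporter of cGAMP, were at least 2-fold lower than in all others, with too few UMIs to be compared with the trimmed group. Of the 5 genes of this list that could be compared in each library, 1 (Cgas) was higher and none lower in PBS, and none was higher and 2 lower in cmExoaCD11b, where 36.4% of all genes were lower. Against the trimmed group none of 4 was higher and 1 (Lrrc8a, with 3 UMIs in interferon-high cells) was lower in PBS, and none of 2 differed by 2-fold in cmExoaCD11b. The kinase gene Tbk1 was at 156 and 143 CPM, 1.46-fold and 1.69-fold the level of the others and 1.36-fold and 1.08-fold that of the trimmed group. Cgas, which encodes the enzyme that makes cGAMP and is itself interferon-induced, was at 31.2 and 33.5 CPM, 2.33-fold and 1.31-fold the level of all others. Against the trimmed group it had too few UMIs to be compared.

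The remaining antiviral effectors held some abundant transcripts and some exceptions. Of these, 16 of 20 in PBS and 18 of 22 in cmExoaCD11b were at least 2-fold higher. Ifitm3, a membrane protein that blocks viral entry, stood at 1910 against 401 CPM in PBS and 2135 against 793 CPM in cmExoaCD11b. Its relatives did not follow it in PBS, where Ifitm1 stood at 2183 against 2087 CPM and Ifitm2 at 1346 against 1415 CPM. Both were at least 2-fold higher in cmExoaCD11b (2.90-fold and 2.27-fold), but only 1.33-fold each against the trimmed group. Trim30a was 4.62-fold and 4.72-fold higher (2.71-fold against the trimmed group in cmExoaCD11b), and Parp14, an ADP-ribosyltransferase, 10.5-fold and 8.67-fold.

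Of the interferon regulatory factors and STATs, 6 of 9 in PBS and 6 of 10 in cmExoaCD11b were at least 2-fold higher. Irf7, the factor that amplifies interferon production, stood at 279 against 25.1 CPM in PBS and 327 against 40.6 CPM in cmExoaCD11b, ratios of 11.1 (8.58 to 14.5) and 8.03 (6.47 to 10.0). Stat3 was at 0.937 and 1.88 times the level of the others and Irf1 at 2.01 and 3.89 times, or 0.850 and 1.06 for Stat3 and 1.75 and 2.34 for Irf1 against the trimmed group. Receptors and feedback genes were mostly level, with 1 of 9 at least 2-fold higher in PBS, 2 of 10 (Socs1 and Socs3) in cmExoaCD11b and none lower. Ifnar2, a chain of the type I receptor, was at 1.42 and 1.16 times the others, whereas Socs1, an interferon-induced inhibitor of JAK kinases, was 3.48-fold and 6.67-fold higher, the latter 4.12-fold against the trimmed group, where Socs3 was at 1.21.

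Among chemokines and ligands, the UMIs of Cxcl10 came mostly from few cells. Cxcl10, the chemokine that draws Cxcr3-bearing T and NK cells, stood at 1117 against 129 CPM in PBS, a ratio of 8.68 (7.69 to 9.79) that was 20.2 against the trimmed group, and at 2796 against 116 CPM in cmExoaCD11b, a ratio of 24.0 (21.5 to 26.9). It was detected in 43 of 155 PBS and 88 of 247 cmExoaCD11b cells, and the 16 PBS and 25 cmExoaCD11b cells with the most UMIs of it held 87.8% and 79.7% of its UMIs. At the thinned depth Cxcl10 was detected in 18.1% and 27.1% of interferon-high cells against 4.27% and 6.29% of the trimmed group and 8.0% and 8.53% of B cells. T cells showed it in 24.6% and 27.5%, at or above the shares of interferon-high neutrophils, and its detection in other tumor neutrophils did not exceed that in B cells. Cd274, which encodes PD-L1, was detected in 119 PBS and 152 cmExoaCD11b interferon-high cells, at 1306 against 656 CPM in PBS and 1215 against 401 CPM in cmExoaCD11b, and was 1.69-fold and 1.40-fold higher against the trimmed group. At the thinned depth Cd274 was detected in 58.1% and 44.5% of interferon-high cells, 37.5% and 38.6% of the trimmed group, 39.6% and 28.3% of B cells and 22.1% and 29.8% of T cells. In the trimmed group it was below B cells in PBS and above B and T cells in cmExoaCD11b. Of the chemokines and ligands list, 3 of 6 genes in PBS and 6 of 6 in cmExoaCD11b were at least 2-fold higher, the latter 2 of 6 against the trimmed group. Interferon genes themselves were nearly absent: in PBS none of Ifnb1, Ifna4, Ifnl2, Ifnl3 and Ifng had a UMI in interferon-high cells, and in cmExoaCD11b Ifnb1 had 58 UMIs, of which 54 came from 1 cell, and Ifng had 11 UMIs.

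MHC class I presentation was higher by a smaller factor than most other interferon lists. Against all other tumor neutrophils its median log2 ratio was 1.15 in PBS and 1.03 in cmExoaCD11b. B2m, the common light chain, stood at 1859 against 903 CPM in PBS and 2214 against 1311 CPM in cmExoaCD11b, and the heavy chain gene H2-K1 at 1293 against 805 CPM and 1812 against 886 CPM, the latter 1.61-fold against the trimmed group. H2-T23, a nonclassical class I gene, was 3.30-fold and 2.84-fold higher. Tap1, a subunit of the peptide transporter chosen here after its values were seen, was at 123 against 32.5 CPM and 154 against 55.4 CPM. Of the 17 genes of this list 12 in PBS and 9 in cmExoaCD11b were at least 2-fold higher, and 11 and 12 against the trimmed group.

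**Figure D3:**
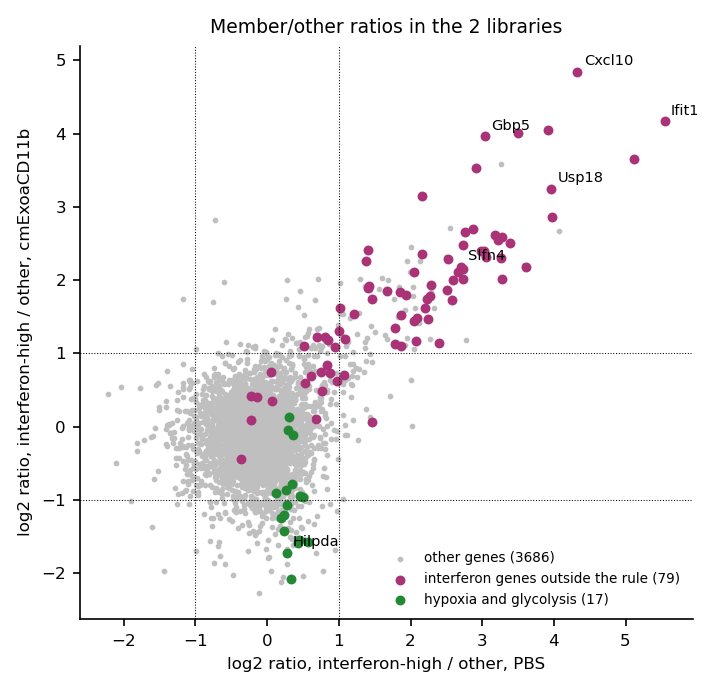
Log2 ratio of interferon-high to other tumor neutrophils in PBS (x axis) and in cmExoaCD11b (y axis), 1 point for each of the 3782 genes that could be compared in both without primary granule and deep cells, with interferon genes outside the rule in purple, hypoxia and glycolysis genes in green, and dotted lines at 2-fold. Of the 79 interferon genes 57 lie at least 2-fold up on both axes, as do 48 of 3686 other genes and 0 of the 17 hypoxia and glycolysis genes.

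Most genes that differed in both libraries were lower against all other tumor neutrophils, whereas most were higher against the trimmed group. Against all other tumor neutrophils 121 genes (2.07% of 5849) were at least 2-fold higher in both libraries and 814 (13.9%) at least 2-fold lower. The lower genes were led by granule and progenitor genes such as Elane (23.4 against 1379 CPM in PBS, 46.9 against 6066 CPM in cmExoaCD11b), Mpo, Ctsg and Prtn3. Against the trimmed group 105 genes (2.78% of 3782) were higher and 5 (0.132%) lower in both. Removing those cells also left fewer genes to compare. Of the 105, 57 were on interferon lists, 3 (Casp8, Socs1 and Daxx) on other lists and 45 on none. Ddx60, an RIG-I-related helicase, was among the latter, at 227 against 10.9 CPM and 300 against 29.9 CPM, ratios of 17.0 and 6.42 against the trimmed group. The following were chosen after their values were seen: Trafd1, a feedback regulator of innate signaling, was 5.61-fold and 5.02-fold higher against the trimmed group, Samhd1, a nucleotide hydrolase that restricts retroviruses, 2.02-fold and 2.90-fold, Casp1, the inflammasome protease, 2.35-fold and 2.96-fold, and the IgG receptor gene Fcgr4 2.28-fold and 2.03-fold. The 5 lower genes were Gpnmb, 9130015A21Rik, Hist1h1d, Atp5o and Hspa1b.

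The program was graded among the cells. With tumor neutrophils without primary granule and deep cells arranged by the share of the 6 genes, Ifit1 stood at 8.45, 51.7, 137, 510 and 1614 CPM in PBS cells below 0.1%, from 0.1% to 0.3%, from 0.3% to 0.5%, from 0.5% to 1% and above 1%. In cmExoaCD11b the same 5 ranges gave 30.6, 179, 404, 749 and 2853 CPM. Slfn4 went from 330 to 4711 CPM and from 339 to 3987 CPM between the first and the last range, and MHC class I presentation as a list from 3211 to 7239 CPM and from 4481 to 11264 CPM. Cxcl10 stood at 60.5, 23.7, 192, 602 and 2926 CPM in PBS and at 92.9, 104, 311, 541 and 6404 CPM in cmExoaCD11b. Its largest step in CPM was to the last range, which held 47 and 86 cells. Over interferon-high cells the share of the 6 genes and the summed share of the interferon genes outside the rule had a Spearman rho of 0.51 in PBS (155 cells) and 0.61 in cmExoaCD11b (247 cells), given as a description because both come from the same cells and libraries.

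**Figure D4:**
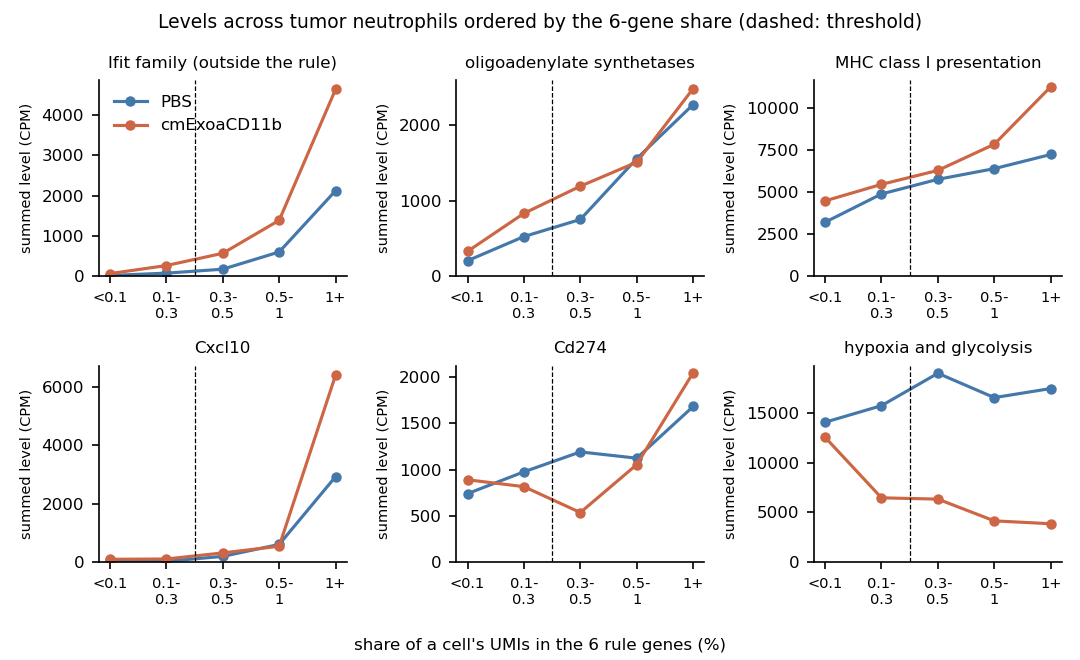
Summed level in CPM (y axes from 0, linear) of 4 gene lists and of Cxcl10 and Cd274 in tumor neutrophils arranged by the percent of UMIs from the 6 genes (x axis, 5 ranges, dashed line at the limit), for PBS (blue) and cmExoaCD11b (orange) without primary granule and deep cells. The Ifit family goes from 19.7 to 2122 CPM in PBS and from 65.7 to 4636 CPM in cmExoaCD11b, whereas hypoxia and glycolysis goes from 12590 to 3863 CPM in cmExoaCD11b and stays at 14107 CPM or more in PBS.

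Inflammatory genes showed no common difference from the trimmed group. Against the trimmed group none of 20 was at least 2-fold apart in PBS, and Cxcl1 was higher (7.38-fold) and Cxcl3 lower (0.288-fold) in cmExoaCD11b, with a median log2 ratio of 0.06 in both. Cxcl2, a neutrophil chemokine, stood at 47835 CPM in PBS interferon-high cells against 35614 CPM in all others (1.13-fold against the trimmed group) and at 28203 against 14588 CPM in cmExoaCD11b (0.805-fold). Il1b stood at 7120 against 6490 CPM and 10104 against 3571 CPM, 0.925-fold and 1.18-fold against the trimmed group. In cmExoaCD11b 13 of the 20 were at least 2-fold higher against all other tumor neutrophils, a count that depended on the primary granule and deep cells. By the share of the 6 genes the list stood at 84994, 69341, 58498, 54641 and 96559 CPM in cmExoaCD11b and between 90168 and 105155 CPM in PBS, and among interferon-high cells its Spearman rho with that share was -0.099 in PBS and 0.23 in cmExoaCD11b.

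Hypoxia and glycolysis genes stood above the median of all genes in PBS, and in cmExoaCD11b they stood near it against all other tumor neutrophils and below it against the trimmed group. In PBS the 17 genes had a median log2 ratio of 0.48 between interferon-high and other tumor neutrophils, against -0.26 for all genes, with none at least 2-fold apart. In cmExoaCD11b the median was -0.58, against -0.47 for all genes, with Slc2a3 at least 2-fold higher (1.10-fold against the trimmed group) and Pdk1, Pgk1, Eno1, Tpi1 and Gapdh at least 2-fold lower, or 5 of 17 where 36.4% of all genes were lower. Against the trimmed group it was -1.07 with 9 of 17 at least 2-fold lower, where the median of all genes was -0.070 and 4.52% were lower. Hilpda, a lipid droplet protein induced by hypoxia, stood at 2398 against 1684 CPM in PBS and at 448 against 609 CPM in cmExoaCD11b, where the trimmed group was at 1482 CPM. Gapdh stood at 4441 against 3489 CPM in PBS and at 1028 against 2446 CPM in cmExoaCD11b. By the share of the 6 genes the list stood at 12590, 6478, 6347, 4152 and 3863 CPM in cmExoaCD11b, and between 14107 and 19046 CPM in every range of PBS. Among interferon-high cells alone it did not go with that share, with a Spearman rho of 0.016 in PBS and 0.051 in cmExoaCD11b.

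Between interferon-high cells of the libraries, the interferon program was somewhat higher in cmExoaCD11b and hypoxia genes were lower. At least 50 UMIs over both groups were found for 2801 genes, of which 329 (11.7%) were at least 2-fold higher and 200 (7.14%) at least 2-fold lower in cmExoaCD11b. Of the interferon genes outside the rule 21 of 86 were at least 2-fold higher and 0 lower, with a median log2 ratio of 0.47 against 0.15 for all genes. The Ifit family (3 of 3), guanylate-binding proteins and immunity-related GTPases (4 of 8) and the Ifi200 family (3 of 6) held the largest shares. The minimum of 50 UMIs summed both libraries, so a gene near 0 in 1 library could pass through the other alone. Ifi203 had 8 UMIs in PBS and 97 in cmExoaCD11b, and Mndal 12 and 129. The part of this minimum in the counts was not tested. Ifit2 was 5.98-fold higher (exact conditional interval 4.52 to 8.06), Gbp5 4.08-fold (2.92 to 5.83), Cxcl10 2.5-fold (2.28 to 2.75), Ifitm1 2.40-fold and Ifih1 2.58-fold. For some of these genes few cells held most UMIs. The 16 PBS and 25 cmExoaCD11b cells with the most UMIs of a gene held 92.7% and 73.8% for Ifit2, and 70.7% and 74.6% for Gbp5. In cmExoaCD11b the share was 97.9% for Ifi203. Such shares partly follow from few detections, as Gbp5 had 41 UMIs in 28 PBS cells and Ifi203 was detected in 27 cmExoaCD11b cells. With the top cell of each gene left out, the median log2 ratio of the interferon genes outside the rule was 0.51. Other genes of the program stood at like levels in both, such as Slfn4 at 0.937, Usp18 at 0.961 (0.776 to 1.19), Irf7 at 1.17 and Cd274 at 0.930 times the PBS level. In MHC class I presentation 3 of 17 genes were at least 2-fold higher, Nlrc5, the factor that switches on class I genes, and the near-identical H2-Q6 and H2-Q7, between which reads could be split. None of the 4 Schlafen genes, the 5 oligoadenylate synthetases or the 4 genes of Isg15 conjugation was 2-fold apart.

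**Figure D5:**
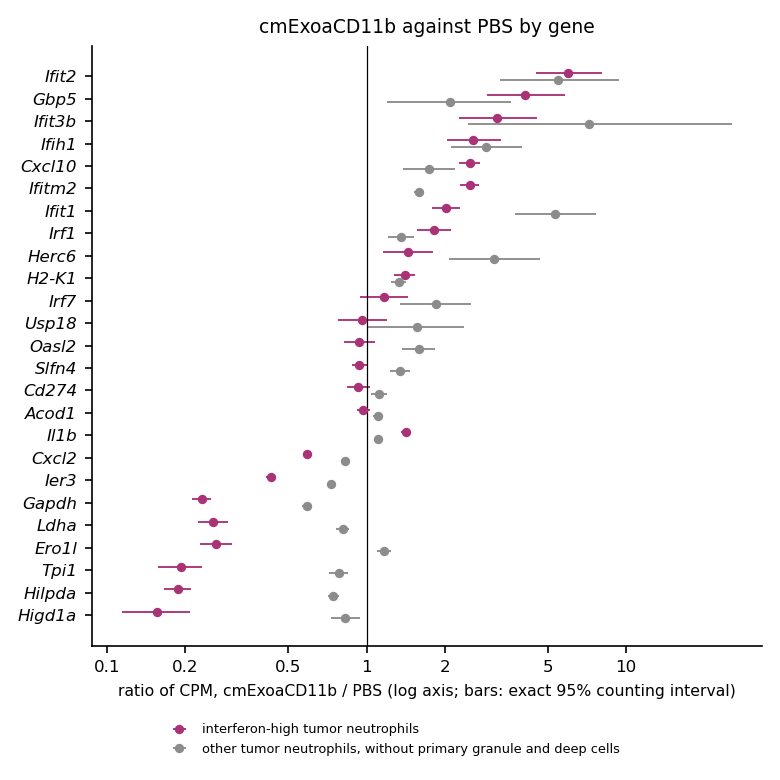
Ratio of the level in cmExoaCD11b to that in PBS (x axis, log scale) for single genes (y axis), in interferon-high tumor neutrophils (purple) and in other tumor neutrophils without primary granule and deep cells (gray), with exact 95% counting intervals as bars. Hilpda, Tpi1, Gapdh, Ldha and Ero1l lie at 0.187 to 0.263 in interferon-high cells and at 0.589 to 1.17 in the others, and Ifit2 lies above 5 in both.

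Hypoxia and glycolysis genes were lower in the cmExoaCD11b interferon-high cells as a group. The list summed to 17724 CPM in PBS and 4752 CPM in cmExoaCD11b, and 14 of 16 genes were at least 2-fold lower, with a median log2 ratio of -1.81. Hilpda was at 0.187 (0.165 to 0.211), Tpi1 at 0.192 (941 and 181 CPM), Gapdh at 0.232, Ldha at 0.256 and Ero1l at 0.263 times the PBS level. The trimmed other tumor neutrophils did not show this size of difference: 0 of 17 genes were at least 2-fold apart, where 3.60% of all genes were higher and 2.38% lower, and the median was -0.35. The 10 genes with the smallest ratio were Pgm1, Cstdc5, H1f0, Csta2, A930007I19Rik, Higd1a (482 and 75 CPM), Egln1, Hilpda, Tpi1 and Adgrg3. Inflammatory genes were at a median of -0.22, with Tnfaip2 at least 2-fold higher and Cxcl3, Il1a and Ier3 at least 2-fold lower, and with Cxcl2 at 0.590, Ier3 at 0.426 and Il1b at 1.42 times the PBS level.

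The genes with the largest ratios in cmExoaCD11b were of several kinds. Hemoglobin transcripts, which red cells carry, were at the top: Hba-a1 had 327 UMIs in cmExoaCD11b and 0 in PBS, at least 74.7-fold higher with 3 counts taken for the PBS library, and Hbb-bs had 600 UMIs in 31 cells against 1 UMI, with 254 and 243 UMIs in 2 cells. In the trimmed other tumor neutrophils Hbb-bs was 39.8-fold and Hba-a1 29.0-fold higher in cmExoaCD11b, so they differed between the libraries outside the interferon-high cells too. Other lineage markers moved as well. Of the B and plasma cell list 3 of 3 genes that could be compared, Igkc, Ighm and Jchain, were at least 2-fold higher in cmExoaCD11b interferon-high cells (median log2 ratio 1.07, and 0.92 in the trimmed others). Of the dendritic cell list 1 of 4 was higher (median 0.87, and -0.17 in the trimmed others), and of the macrophage and monocyte list 2 of 3, Apoe and F13a1, were lower (median -1.25, and -0.79 in the trimmed others). The part of these transcripts in the other differences between the libraries was not tested. Ripor2, a regulator of neutrophil polarity and movement, stood at 62.5 CPM in PBS and 672 CPM in cmExoaCD11b, a ratio of 10.8 (7.52 to 15.9), and was 3.82-fold higher in the trimmed others. Slc44a2, a choline transporter-like protein of neutrophils, was 11.4-fold higher on 3 PBS UMIs, with an interval of 3.69 to 57.3. Ifnb1, at least 13.3-fold higher, rested on 1 cell. None of the 9 promoters matched for the 10 named genes held the response element.

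The trimmed other tumor neutrophils also differed in interferon genes between the libraries. Of 78 that could be compared 27 were at least 2-fold higher in cmExoaCD11b and 1 lower, with a median log2 ratio of 0.66, and Ifit1 was 5.31-fold higher (3.72 to 7.66) in them against 2.02-fold (1.79 to 2.29) in interferon-high cells. The limit of 0.3% caps the summed share of the rule genes in other tumor neutrophils of both libraries. In interferon-high cells it sets a floor for that share. The genes compared here lie outside the rule and are not directly bounded by the limit. Its part in these ratios was not tested, and the ratios were not compared with a test.

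Retnlg Mmp8 neutrophils gave a second population to set beside these. Their interferon-high cells (49 in PBS and 379 in cmExoaCD11b) had 54 of 70 interferon genes outside the rule at least 2-fold higher than other Retnlg Mmp8 neutrophils in PBS (median log2 ratio 2.15, with 7.27% of all genes higher and 9.83% lower) and 51 of 97 in cmExoaCD11b (1.06, with 2.29% higher and 4.15% lower). Between the libraries 11 of 88 of these genes were at least 2-fold higher in cmExoaCD11b and 2 lower in the interferon-high Retnlg Mmp8 neutrophils, where 13.9% of all genes were higher, with a median of 0.25. In the other Retnlg Mmp8 neutrophils 55 of 89 were higher and 0 lower, where 5.82% of all genes were higher, with a median of 1.37. The limit caps the share of the 6 rule genes in these cells, and its part in this median was not tested. Hypoxia and glycolysis had a median of 0.57 in PBS, with 5 of 17 genes higher, and of -0.68 in cmExoaCD11b, with 2 lower. Between the libraries 13 of 15 hypoxia and glycolysis genes were at least 2-fold lower in cmExoaCD11b in interferon-high Retnlg Mmp8 neutrophils (median -2.00, with 6.81% of all genes lower), against 2 of 17 in the other Retnlg Mmp8 neutrophils (median -0.61, with 5.82% higher and 1.07% lower). In the interferon-high Retnlg Mmp8 neutrophils Hilpda was at 0.143 (0.122 to 0.167) and Ldha at 0.251 times the PBS level. Inflammatory genes were at least 2-fold lower in 10 of 20 cases in the interferon-high Retnlg Mmp8 neutrophils, with a median of -0.90. In interferon-high tumor neutrophils 3 of 20 were lower and 1 higher.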

How the data were processed

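The authors deposited raw UMI counts for every barcode, empty droplets included, 1 matrix per library. The libraries were made with the 10x Chromium 3′ kit and counted with Cell Ranger 7.1.0 per the file headers; the genome build is not given in the sources used here. The matrices held 67143628 UMIs in PBS and 81288480 in cmExoaCD11b over 32285 genes, and 7095 and 7258 barcodes had at least 1000 UMIs. Cells were gated as the report states, with no clustering. The members and gene lists were chosen with earlier results of these data known, and some lists were shaped by them.

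UMIs were summed over the cells of a group and scaled to 1000000 per group (CPM), so deeper cells weigh more. Levels have exact Poisson, shares exact Clopper-Pearson and ratios exact conditional binomial intervals, which cover counting error only. Genes with at least 50 UMIs over both groups were compared, and at least 2-fold was called. No test across libraries was possible with 1 library per treatment, and cells were not used as replicates. Log2 ratios had 1 UMI added to each group. Free RNA was estimated from immunoglobulin genes relative to droplets of 10 to 100 UMIs.

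Named genes were the up to 4 members of each list with the most UMIs in interferon-high cells, the 10 highest and 10 lowest in both libraries against other tumor neutrophils, and the 10 highest and 10 lowest between libraries. Genes used by the rule, mitochondrial, ribosomal protein, immunoglobulin, Xist and Y-linked genes were left out of the rankings. Genes singled out otherwise, which include Casp8, Daxx, Tbk1, Tmem173, Cgas and the genes named because few of a list passed, were chosen after their values were seen. Some genes, and part of the tumor line's genotype, are not reported here.

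The computations were tested on simulated data. Alternatives covered the limit, thinning to 1000 UMIs, leaving Isg15 out of the rule, removal of the highest Scrublet doublet scores (its automatic threshold marked 0 cells, so it had not worked; 381 and 405 cells were removed by rank, 3 and 9 of them interferon-high), means over cells, and minimums of 20 and 200 UMIs per gene. Python 3.11.15, numpy 2.4.6, scipy 1.17.1, pandas 2.3.3, scanpy 1.11.5 and matplotlib 3.10.9 were used.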

Additional observations from a re-analysis of the deposited data

Results flagged for a closer look

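Hypoxia and glycolysis genes differed in direction between the libraries. The median log2 ratio of interferon-high to other tumor neutrophils was 0.48 in PBS and -0.58 in cmExoaCD11b over the 17 genes, against -0.26 and -0.47 over all genes, so that the cmExoaCD11b value was close to that of all genes. The difference between the libraries was not tested, since each treatment had 1 library. Without primary granule and deep cells the medians were 0.30 and -1.07, against -0.15 and -0.070 over all genes. Primary granule cells held 9.19% of the comparison group's UMIs in PBS and 44.7% in cmExoaCD11b.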

How the results depend on the processing

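Each of the 12 main results was recomputed under the alternatives, giving 171 values, of which 138 stayed and 33 moved. A gene count was said to move beyond 1.5-fold, and a share of cells or the ratio of shares when it left its counting interval. A median was said to move when it left the range between the median lower and median upper interval limits of its genes. The ratio of the shares stayed between 2.25 and 2.76. The median log2 ratio of the interferon genes outside the rule stayed between 1.54 and 2.24 in PBS, between 1.65 and 1.94 in cmExoaCD11b and between 0.43 and 0.57 between the libraries. The shares of interferon-high cells moved with the limit, to 17.4% in PBS and 40.3% in cmExoaCD11b at 0.2% and to 8.13% and 22.4% at 0.5%, and without Isg15 in the rule to 8.21% and 19.2%. With all gates applied to cells thinned to 1000 UMIs the PBS share was 15.4%, the PBS median was 1.54, and the counts of genes at least 2-fold higher and lower were 80 and 135 in PBS, 98 and 131 in cmExoaCD11b, and 148 and 90 between the libraries, from fewer UMIs. With means over cells 615 genes were lower in PBS, and 253 were higher and 1066 lower in cmExoaCD11b. With cells chosen on a random set of their UMIs and read in the other, 667 genes were lower in PBS and 1575 in cmExoaCD11b, and 206 were higher and 119 lower between the libraries. At a minimum of 20 UMIs 311 genes were higher in PBS, and 598 were higher and 349 lower between the libraries. At 200 UMIs the counts were 83 and 317 in PBS, 354 and 908 in cmExoaCD11b, and 113 and 74 between the libraries. Without deep and primary granule cells, left out here also among interferon-high cells (4 in cmExoaCD11b), an alternative chosen after seeing the data, 306 genes were lower in PBS, and 181 were higher and 174 lower in cmExoaCD11b. Single genes changed sign in 3 cases: the log2 ratio of Xpc in PBS was 0.87 with thinned cells, and without deep and primary granule cells that of Mpo in PBS was 0.035 and that of Gstm1 in cmExoaCD11b was 1.76e-05. Apart from fewer UMIs, genes or cells, the cause of these moves was not tested.

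No paired analysis was possible because each treatment had 1 library, and for the same reason no replicate was left out. Depth limits genes below 50 UMIs over a group pair, which include most interferons, and a level of 0 in interferon-high cells allows up to 3 counts, or 5.86 CPM in PBS. Pooled mice, the library and the treatment cannot be told apart. Fewer cells of a type and fewer cells recovered cannot be told apart in shares of cells.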

Other observations

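The oxidative burst list, the NADPH oxidase subunits and their partners, had a median log2 ratio of 0.58 between cmExoaCD11b and PBS interferon-high tumor neutrophils, against 0.15 for all genes. In the trimmed other tumor neutrophils the median was -0.06. Cybb, the catalytic subunit, stood at 76.2 CPM in PBS and 175 CPM in cmExoaCD11b interferon-high cells, a ratio of 2.30 (1.60 to 3.38), and Ncf1 at 383 and 653 CPM, a ratio of 1.71 (1.44 to 2.02).

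Of 8 survival and cell death genes that could be compared 2, the near-identical antiapoptotic genes Bcl2a1a and Bcl2a1b whose reads could be split, were at least 2-fold lower in cmExoaCD11b interferon-high cells, where 7.14% of all genes were lower. Casp4, an inflammatory caspase that is itself interferon-induced, was 2.12-fold higher in interferon-high cells than in the trimmed group in PBS and 1.95-fold in cmExoaCD11b. Hspa1b, an inducible heat-shock gene, was lower in interferon-high cells, at 104 CPM against 394 CPM in the trimmed PBS group and 286 CPM against 582 CPM in cmExoaCD11b. Of 12 immediate-early and heat-shock genes 0 were at least 2-fold higher in PBS interferon-high cells than in all other tumor neutrophils and 2 (Hspa1b and Hsph1) were lower, where 2.78% and 17.8% of all genes were. In cmExoaCD11b 5 were higher and 2 lower, where 8.95% and 36.4% of all genes were, or 0 and 1 of 11 against the trimmed group. Cybb, Ncf1 and Hspa1b were chosen after their values were seen.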
